A study of Mus musculus with 28 samples.

Results

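The comparison described here set leukocytes from day 12 B16 tumours of Nrp1-deleted mice against those of control mice. Its members are the arrays whose titles give B16, day 12 and CD45+ together with either Nrp1 or FYC, which is 4 of the 28 arrays of the series, 2 in each group. The series profiled CD45+ cells sorted from B16.F10 (melanoma) and MC38 (colon carcinoma) tumours over 6 combinations of tumour and day. The Nrp1-deleted hosts had the genotype Nrp1L/LFoxp3Cre-YFP and the control hosts the genotype Foxp3Cre-YFP. Both therefore carried the Cre recombinase and YFP, which the Foxp3 gene drives. The design directs loss of the floxed Nrp1 alleles to Foxp3-expressing cells, and whether other cells of the host kept the gene was not tested. RNA was taken from the sorted cells without culture and amplified in 2 cycles. The labels tie no replicate to a mouse of its own, so every p-value here rests on the scatter among arrays, which may be technical.

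Regulatory T cells, defined by the transcription factor Foxp3, restrain other lymphocytes, and in tumours they are known for limiting CD8 T cell responses. Neuropilin-1, the product of Nrp1, is a surface co-receptor for semaphorins and vascular endothelial growth factor that most mouse regulatory T cells of thymic origin carry. It is also found on macrophages, dendritic cells and endothelium. Tumour-associated macrophages arise largely from blood monocytes, and the genes Arg1 (arginase 1) and Mrc1 (the mannose receptor CD206) are widely used as marks of their alternatively activated state.

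Values are on the log2 scale of the deposited table, where a difference of 1 is a 2-fold change, and each gene is read from its probe set of highest mean across the series. Values below 3.64, the median of all values, are called near background. Differences are Nrp1-deleted minus control with their standard error (SE), from a limma model of all 28 arrays, and a gene passed at an adjusted p under 0.05. The arrays of a pair are given in the order replicate 1, replicate 2. With 2 arrays against 2, an exact permutation test of a single gene cannot go below p = 0.333, so no such test was run, and precision is limited by how few arrays there are. Array replicates correlated at r = 0.994 in the Nrp1-deleted group and at 0.9957 in the control group, and arrays of different genotype at 0.9664 to 0.9731.

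Nrp1 itself was lower on both Nrp1-deleted arrays. It read 9.43 and 8.84 in Nrp1-deleted hosts, against 10.24 and 10.08 in control hosts, a difference of -1.03 ± 0.23 (adjusted p = 0.00191). The other probe sets of Nrp1 read 8.64 and 8.25, against 9.67 and 9.41, and 8.56 and 7.90, against 9.58 and 9.54, in the same order of groups. On all 3 probe sets both Nrp1-deleted arrays lay below both control arrays, and without Nrp1-deleted replicate 2 the main probe set did not pass (adjusted p = 0.0707). Where the probes lie relative to the floxed part of the gene was not looked up. Foxp3 read 3.04 and 3.10, against 2.93 and 3.02, near background on every array. Ptprc, which encodes CD45, the protein used for sorting, read 12.90 and 12.77, against 12.68 and 12.66 (adjusted p = 0.246), among the highest levels measured here. Of 8 general leukocyte genes, 7 did not pass, with differences between -0.12 and 0.17. The exception was Spi1, which encodes the myeloid and B cell transcription factor PU.1. It read 5.21 and 5.92, against 7.99 and 8.11, and fell by 2.48 ± 0.21 (adjusted p = 1.14e-08).

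Across the 17097 genes tested, 2900 passed, or 17.0%. Of these, 1333 rose (7.80%) and 1567 fell (9.17%), and the median difference over all genes was 0.04. Changes of at least 2-fold lay mostly on the lower side, with 197 genes higher (1.15%) and 901 lower (5.27%). Both Nrp1-deleted arrays lay above both control arrays for 5409 genes (31.6%) and below them for 4125 (24.1%). All 2900 passing genes had groups that did not overlap, so separation of the arrays adds no support beyond the call itself. The count of passing genes fell to 1894 without control replicate 1, 1802 without control replicate 2, 1841 without Nrp1-deleted replicate 1 and 2157 without Nrp1-deleted replicate 2. Of those, 1861, 1764, 1742 and 2032 were among the original 2900. In sorted mixtures such as these, fewer cells of a type and less RNA per cell cannot be told apart.

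The 15 genes that fell furthest included the alternative activation genes Arg1, Mrc1, Mgl2 and Chil3 and the chemokine genes Pf4, Cxcl1 and Ccl7. Pf4, the chemokine platelet factor 4, read 3.18 and 3.60 in Nrp1-deleted hosts, against 9.56 and 10.39 in control hosts, a fall of 96.3-fold (-6.59 ± 0.61, adjusted p = 2.52e-08). Arg1 read 4.86 and 6.28, against 11.72 and 11.78 (-6.18 ± 0.53, adjusted p = 1.05e-08). Dab2, an endocytic adaptor, read 3.70 and 4.09, against 9.89 and 10.22 (-6.17 ± 0.47, adjusted p = 3.48e-09). In each case a transcript abundant on both control arrays was far lower on both Nrp1-deleted arrays, with a gap of more than 5 log2 units between the groups. Pf4 was near background on both Nrp1-deleted arrays, whereas Arg1 stayed above it, at 6.28 on replicate 2. Mrc1 fell by 5.78, the neutrophil-attracting chemokine gene Cxcl1 by 5.52, the macrophage elastase gene Mmp12 by 4.97, and Ccl7, a ligand of the monocyte receptor CCR2, by 4.92. Mmp13 (a collagenase) fell by 4.90, Chil4 and Chil3 (chitinase-like proteins) by 4.82 and 4.55, Ms4a7 (a membrane protein of macrophages) by 4.79, Mgl2 (a galactose-binding lectin) by 4.77, Vcan (the matrix proteoglycan versican) by 4.70, Plet1 by 4.62 and Gzme (granzyme E) by 4.56. Of the 15, Gzme alone lost its call when an array was left out, either control replicate 1 or Nrp1-deleted replicate 1.

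Those that rose furthest were of more mixed kinds. Jchain, the joining chain of polymeric antibodies, read 8.55 and 9.42, against 4.28 and 5.72 (3.98 ± 0.59, adjusted p = 2.42e-05). Slc17a6, a vesicular glutamate transporter, read 8.49 and 8.16, against 5.66 and 5.21 (2.90 ± 0.60). Spry1, an inhibitor of receptor tyrosine kinase signalling, read 8.90 and 8.65, against 6.09 and 6.19 (2.64 ± 0.32, adjusted p = 1.09e-06). Groups did not overlap in any of these, as the rule for naming them required. Il21, a cytokine of helper T cells, rose by 2.32, Gpld1 by 2.28, the lymphocyte transcription factor gene Ikzf3 (Aiolos) by 2.14, Tacc2 by 2.04, the T cell receptor segment Trbv13-2 by 2.04, the potassium channel gene Kcnk5 by 2.01, Susd1 by 1.93 and Stfa3 (a stefin) by 1.93. Iglv1, Mcpt8, Gata2 and Sdcbp2 complete the 15, and each of these lost its call when an array was left out. Nrp1-deleted replicate 2 was decisive for Iglv1 and Mcpt8. Gata2 failed without either control array or without Nrp1-deleted replicate 2, and Sdcbp2 (1.97 ± 0.57) without any of the 4.

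**Figure D1:**
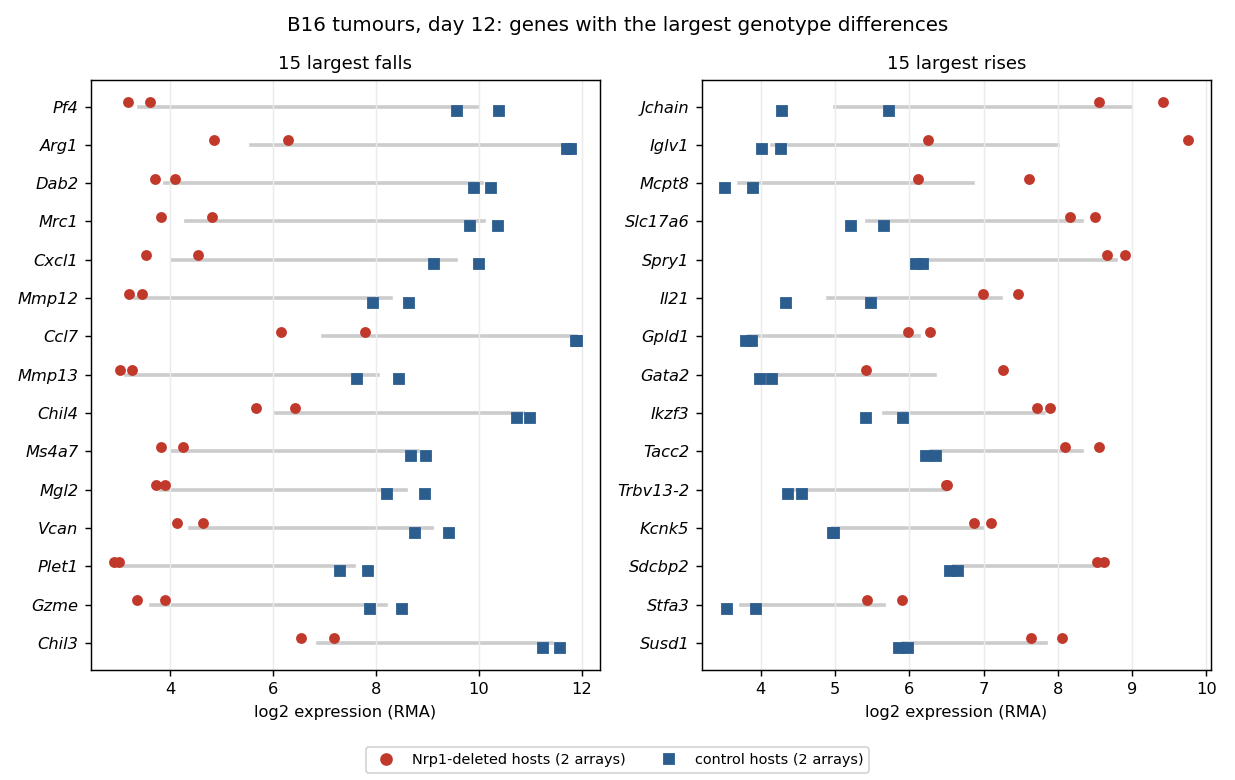
Log2 expression of the 15 genes with the largest falls (left panel) and the 15 with the largest rises (right panel) at B16 day 12, with a red circle for each of 2 Nrp1-deleted arrays and a blue square for each of 2 control arrays, and a grey bar between the group means. Pf4 lies at 3.18 and 3.60 on the Nrp1-deleted arrays, against 9.56 and 10.39 on the control arrays, and Iglv1 shows the widest spread within a group, 6.26 and 9.74 on the Nrp1-deleted arrays.

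Macrophage identity genes were mostly lower in Nrp1-deleted hosts. Of 17 measured, 13 fell and 0 rose, with a median of -2.93. Csf1r, the receptor for the macrophage growth factor CSF1, read 5.86 and 6.01, against 8.74 and 8.91 (-2.89 ± 0.21, adjusted p = 1.88e-09). Cd68, a lysosomal protein of phagocytes, read 7.66 and 8.22, against 11.21 and 11.23 (-3.28 ± 0.26, adjusted p = 4.99e-09). C1qc, a chain of the complement starter C1q made by macrophages, read 5.88 and 6.65, against 10.129 and 10.003 (-3.80 ± 0.34, adjusted p = 1.71e-08). Neither group overlapped the other in these genes, and all 3 stayed well above background on the Nrp1-deleted arrays. Adgre1 (an adhesion receptor used to mark mouse macrophages) fell by 2.93, the Fc receptor gene Fcgr1 by 3.42, the lipopolysaccharide co-receptor gene Cd14 by 3.38, the efferocytosis receptor gene Mertk by 2.31 and the folate receptor gene Folr2 by 3.63. Lyz2 (lysozyme) fell by 1.04 and remained at 11.59 and 11.67. Cd163, Timd4 and Vsig4 were near background on all 4 arrays, and Maf, at 6.34 and 6.12 against 6.50 and 6.59, did not pass. The mean over the list was 5.71 and 6.03 in Nrp1-deleted hosts, against 8.29 and 8.34 in control hosts. Between 12 and 13 members fell under the alternatives, and the call on Siglec1 (-1.11) depended on Nrp1-deleted replicate 2. On the same arrays the mean of 12 melanocytic genes, which mark the tumour cells, was also lower (4.82 and 5.56, against 6.604 and 6.82), and its part in the falls of this and the other gene groups was not tested.

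Alternative activation genes showed the same direction, with 15 of 18 falling, 0 rising and a median of -3.26. Besides Arg1 and Mrc1, the scavenger receptor gene Stab1 read 3.951 and 4.003, against 7.10 and 7.38 (-3.26 ± 0.31, adjusted p = 3.41e-08). Msr1, another scavenger receptor, read 6.13 and 6.70, against 9.72 and 9.71 (-3.30 ± 0.33, adjusted p = 7.3e-08). Groups were separated by about 3 log2 units in both. Tgm2 (transglutaminase 2) fell by 3.26, Il1rn (the interleukin 1 receptor antagonist) by 3.28, Clec7a (dectin-1) by 2.95, Clec10a by 3.21, the CCR4 ligands Ccl17 and Ccl22 by 4.52 and 3.72, and the transcription factor gene Egr2 by 1.90. Irf4 (1.05 ± 0.40, adjusted p = 0.0804), Pdcd1lg2 (0.06) and Cd163 did not pass. Retnla (-2.37 ± 0.80, adjusted p = 0.0423) lost its call without any one of the 4 arrays.

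Of 14 genes of the opposite, inflammatory state, 10 fell and 0 rose (median -1.45). Irf5, a transcription factor of inflammatory macrophages, read 6.34 and 6.78, against 9.18 and 9.18 (-2.62 ± 0.20, adjusted p = 3.98e-09). Cxcl10, an interferon-induced ligand of CXCR3, read 9.53 and 9.91, against 11.41 and 11.39 (-1.68 ± 0.18). Il12b, the p40 chain of interleukins 12 and 23, read 4.08 and 4.58, against 8.04 and 7.59 (-3.48 ± 0.42). All 3 were separated by more than 1.4 units between groups. Il1b fell by 2.29 and Ptgs2 (cyclooxygenase 2) by 2.20. Nos2, the inducible nitric oxide synthase, was near background on 3 of 4 arrays and Tnf did not pass (-0.24 ± 0.34). Il6 read 8.65 and 10.05, against 7.76 and 8.58 (adjusted p = 0.11). Its difference of 1.18 passed as a rise when the spread came from the groups compared only or from the 8 early and day 12 B16 arrays.

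Chemokines of the myeloid compartment fell in 11 of 15 cases (median -2.86). Ccl12 read 6.59 and 7.48, against 11.28 and 11.34 (-4.28 ± 0.37, adjusted p = 1.23e-08), and like Ccl2 (-3.63), Ccl7 and Ccl8 (-4.28) it encodes a monocyte attractant. Cxcl16, the ligand of CXCR6, read 5.60 and 5.96, against 8.55 and 8.52 (-2.75 ± 0.25, adjusted p = 1.98e-08). In each of these 5 both Nrp1-deleted arrays lay below both control arrays. Their counterparts Ccl3 and Ccl4, chemokines that activated lymphocytes also make, moved the other way. Ccl4 read 12.02 and 12.16, against 11.22 and 11.13, and rose by 0.91 ± 0.20 (adjusted p = 0.00165). Ccl3 read 12.19 and 12.22, against 11.68 and 11.48, and rose by 0.63 ± 0.18, a call lost without control replicate 2 or either Nrp1-deleted array. Ppbp, a platelet chemokine, fell by 2.99 but not without control replicate 2.

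Complement, Fc receptor, Toll-like receptor and lysosomal genes also fell in most cases. The complement list shares the 3 C1q genes with the macrophage list, the Fc receptor list shares Fcgr1 and the Toll-like receptor list shares Cd14. Complement genes fell in 8 of 10 cases (median -3.37), all 5 Fc gamma receptor genes fell (median -2.91), Toll-like receptor genes in 9 of 12 (median -1.39) and lysosomal hydrolases in 11 of 13 (median -1.36). Cfp, the complement activator properdin, read 5.14 and 6.32, against 9.34 and 9.52 (-3.70 ± 0.33). Fcgr3, a low-affinity antibody receptor, read 7.50 and 8.14, against 10.61 and 10.72 (-2.85 ± 0.22, adjusted p = 3.48e-09). Tlr3, the sensor of double-stranded RNA, read 3.10 and 3.55, against 6.72 and 6.61 (-3.34 ± 0.24, adjusted p = 2.33e-09). Tlr3 was near background on both Nrp1-deleted arrays, whereas Cfp and Fcgr3 remained measurable there. Lgmn, the protease legumain, read 5.80 and 6.55, against 10.49 and 10.32 (-4.23 ± 0.37), while the cathepsin D gene Ctsd, at 10.80 and 10.84 against 10.74 and 10.47, did not pass. C4b and Myd88 lost their calls without Nrp1-deleted replicate 1, Lipa without control replicate 1 or Nrp1-deleted replicate 2, and Ctsa without any one array.

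**Figure D2:**
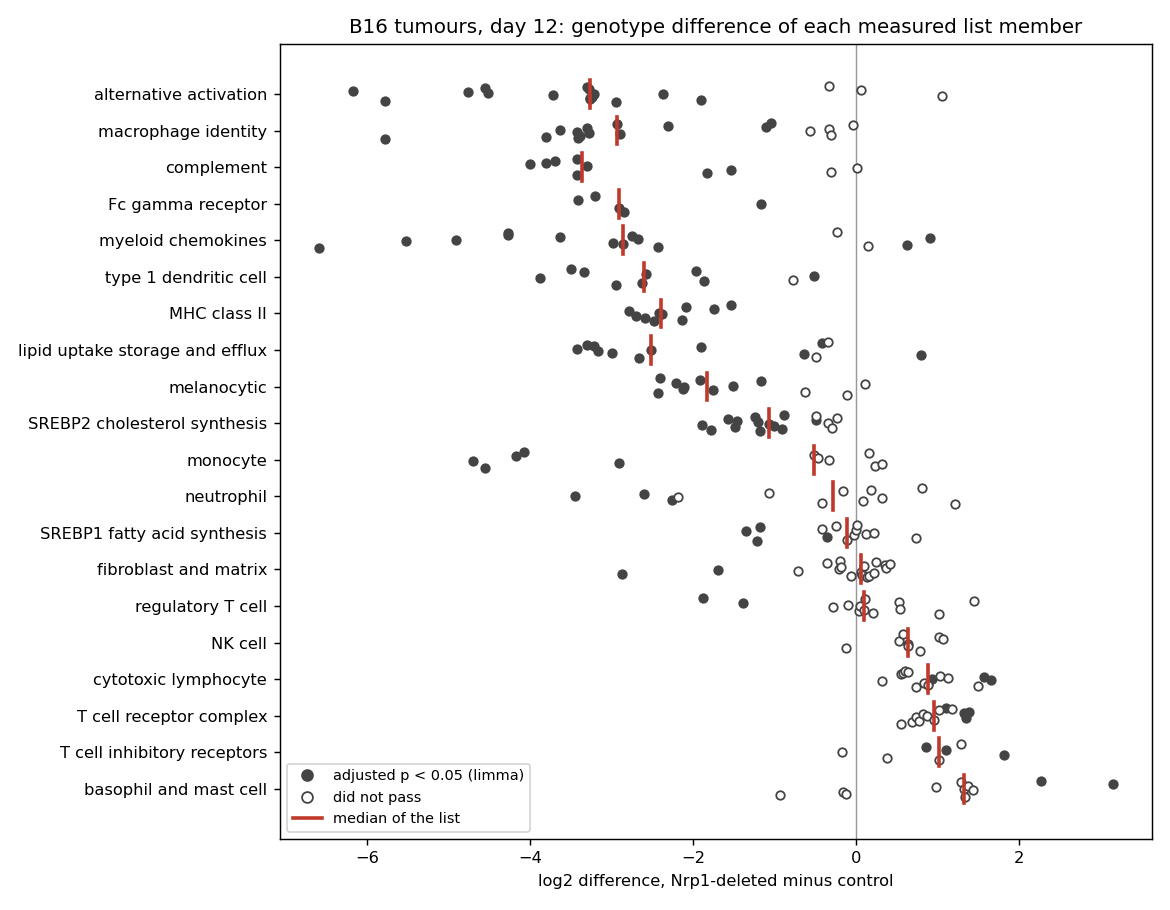
Log2 difference at B16 day 12, Nrp1-deleted minus control, for every measured member of 20 gene lists, with filled points for members that passed in limma, open points for those that did not, and a red line at the median of each list. The medians run from -3.37 for complement genes to 1.33 for basophil and mast cell genes, against a median of 0.04 over all genes.

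MHC class II genes, whose products present peptides to CD4 T cells, fell without exception. All 10 measured members fell, by 1.54 to 2.79 (median -2.40), and all 10 passed under every alternative run. H2-DMa, a chain of the peptide-loading factor H2-M, read 8.44 and 8.75, against 10.64 and 10.81 (-2.13 ± 0.18, adjusted p = 7.42e-09). H2-DMb2, its partner, read 7.09 and 7.98, against 10.18 and 10.31 (-2.71 ± 0.25). Cd74, the invariant chain, read 9.03 and 9.38, against 11.51 and 11.73 (-2.41 ± 0.22). The groups stood about 2 units apart in each, and Nrp1-deleted replicate 1 was the lower of its pair in all 10 members. Ciita, the master activator of class II transcription, fell by 2.60 (4.56 and 4.94, against 7.29 and 7.40). H2-Aa and H2-Eb1, which encode chains of the presenting molecules themselves, fell by 1.74 and 2.08. Class I genes behaved differently. Of 8 genes for class I chains and their peptide supply, 7 did not pass, H2-K1 among them at 13.045 and 13.051 against 13.001 and 12.901. Their median was 0.10, and of all genes tested 17.0% passed. Nlrc5, the class I activator, rose by 0.62 ± 0.18, a call lost without any one array.

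Class II promoters share a Y box, which the factor NF-Y reads, and the class II group moved together, so promoters of the presenting chains H2-Aa and H2-Eb1 are printed. They come from RefSeq on GRCm38.p6 and run from 250 bases before to 50 bases after the start site, 5′ to 3′ on the strand of the gene, with the letters GATTGG or its reverse complement in capitals. H2-Aa lies at chr17:34287774-34288073 on the minus strand and H2-Eb1 at chr17:34305617-34305916 on the plus strand.
H2-Aa: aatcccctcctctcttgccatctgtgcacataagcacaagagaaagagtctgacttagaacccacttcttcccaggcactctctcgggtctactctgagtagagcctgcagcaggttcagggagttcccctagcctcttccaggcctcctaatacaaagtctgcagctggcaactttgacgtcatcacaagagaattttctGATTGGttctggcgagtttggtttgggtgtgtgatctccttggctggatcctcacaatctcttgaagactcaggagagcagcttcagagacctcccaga
H2-Eb1: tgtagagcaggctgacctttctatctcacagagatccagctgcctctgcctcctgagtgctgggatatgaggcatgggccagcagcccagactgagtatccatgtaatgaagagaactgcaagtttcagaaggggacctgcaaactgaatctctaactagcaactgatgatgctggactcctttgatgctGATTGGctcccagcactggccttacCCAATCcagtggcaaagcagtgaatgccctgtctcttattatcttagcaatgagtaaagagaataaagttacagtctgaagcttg
The match in H2-Aa begins at position -49, and H2-Eb1 holds 2 matches, 1 in each orientation. Of the 10 class II genes, 7 matched an entry of the promoter table, and GATTGG on either strand was present in 7 of these 7 and in 18.2% of all 27025 genes with a promoter. Cd74, Ciita and H2-Ab1 were not matched. The X box letters CCTAGNAAC were found in 2 of the 7 and in 1.8% of all genes. A match describes letters in this window and is not evidence that a factor binds there.

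Dendritic cell genes fell as well. Of 10 genes of type 1 dendritic cells, which cross-present antigen to CD8 T cells, 9 fell (median -2.61). Wdfy4, required for cross-presentation, read 4.95 and 5.91, against 8.93 and 8.94 (-3.50 ± 0.30, adjusted p = 1.21e-08). Cadm1, an adhesion molecule of these cells, read 4.01 and 4.24, against 6.995 and 6.525 (-2.63 ± 0.27). Xcr1, their chemokine receptor, read 3.09 and 3.30, against 7.41 and 6.74, and so was near background on both Nrp1-deleted arrays (-3.88 ± 0.51). Batf3, the factor on which these cells depend, fell by 2.58, and the growth factor receptor gene Flt3 by 2.95. Irf8 fell by 0.52 and stayed at 9.94 and 10.27, with the call lost without control replicate 1 or Nrp1-deleted replicate 1. Of 11 genes of mature dendritic cells, 6 fell (median -2.02), led by the actin-bundling Fscn1, at 7.16 and 7.87, against 11.18 and 10.94 (-3.54 ± 0.29, adjusted p = 5.39e-09). Ccl17 and Ccl22, Il12b, Cd83 (-2.12) and Il4i1 (-2.02) made up the rest, and the first pair are shared with the alternative activation list. Of 5 genes of plasmacytoid dendritic cells, 1 fell, the transcription factor gene Tcf4 (-1.32 ± 0.18).

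Monocyte genes split. Of 11, 5 fell and 0 rose, with a median of -0.52. Fn1 (fibronectin) read 5.55 and 6.59, against 10.01 and 10.49 (-4.18 ± 0.39, adjusted p = 3e-08), and F13a1 (coagulation factor XIII) read 6.36 and 7.18, against 10.76 and 10.94 (-4.08 ± 0.43). Both stood more than 3 units apart between groups, as did Chil3 and Vcan, and Treml4 fell by 2.91. By contrast Ccr2, the receptor that brings monocytes into tissue, read 10.61 and 10.84, against 11.21 and 11.27 (-0.52 ± 0.20, adjusted p = 0.0779). Plac8 (-0.46), Ly6c1 (0.23) and Cx3cr1 (0.16), all at 7.84 or above on every array, did not pass. Lymphocytes also express several of these 4 genes. Under some alternatives Ccr2 and Plac8 passed as falls, for a count of 7. Those were array weights, only the groups compared and only the 8 early and day 12 B16 arrays. Nr4a1 (0.32) passed as a rise under the same settings except array weights. Of 12 neutrophil genes 3 fell, with Csf3r, the receptor for granulocyte growth factor, at 5.25 and 4.96, against 7.51 and 7.22 (-2.26 ± 0.21, adjusted p = 3.4e-08). Mmp8 fell by 3.45 and S100a9 by 2.60 ± 0.86, the last only with all 4 arrays present. With the spread of the groups compared 5 neutrophil genes fell and 2 rose. The rises were Ltf (1.21) and Ngp (0.81), which did not pass in the model of all arrays. The granule genes Mpo and Elane were near background. All 5 eosinophil genes were near background on all 4 arrays.

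Genes for the uptake, storage and export of lipid fell in 10 of 13 cases, with a median of -2.52. Plin2, the coat protein of lipid droplets, read 8.217 and 8.502, against 11.01 and 11.03 (-2.66 ± 0.20, adjusted p = 3.48e-09). Apoe, which carries cholesterol out of macrophages, read 6.56 and 6.88, against 10.05 and 10.23 (-3.43 ± 0.37, adjusted p = 2e-07). Control arrays thus carried high levels of both, and the Nrp1-deleted arrays intermediate ones. Cd36, a fatty acid and oxidised lipoprotein receptor, fell by 3.21, the lipase gene Lpl by 3.17 and the fatty acid carrier gene Fabp5 by 2.52. Fabp4, another such carrier, had a difference of -3.001 and also passed. Abcg1, a sterol exporter that lymphocytes also express, rose by 0.80 ± 0.16 (9.78 and 9.41, against 8.84 and 8.76). Npc1 (-0.63) lost its call without control replicate 2 or Nrp1-deleted replicate 2. Pparg, a lipid-sensing nuclear receptor, fell by 2.02 ± 0.35, but it belongs to a separate list, of fatty acid oxidation and PPAR genes. Of the 12 measured there 2 fell, 1 rose and 9 did not pass, with a median of 0.12. Ppara (0.23) and Ppard (0.14) were among those that did not pass.

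Cholesterol synthesis, which the transcription factor SREBP2 controls, fell in most of its genes, by smaller amounts. Of 17, 13 fell and 0 rose, with a median of -1.07, and 10 to 14 fell under the alternatives. Fdps, farnesyl diphosphate synthase, read 7.80 and 8.48, against 9.847 and 10.004 (-1.79 ± 0.22, adjusted p = 1.54e-06). Msmo1, a sterol demethylase, read 7.62 and 8.10, against 9.31 and 9.56 (-1.58 ± 0.20, adjusted p = 2.49e-06). Sqle, squalene epoxidase, read 6.84 and 7.39, against 8.91 and 9.08 (-1.89 ± 0.24, adjusted p = 2.87e-06). Groups did not overlap in these, and Nrp1-deleted replicate 1 was the lower of its pair in 15 of the 17 genes. Over all genes tested it was the lower in 9378 of 17097. Srebf2, the gene for SREBP2, read 7.02 and 7.21, against 7.98 and 8.07 (-0.91 ± 0.16). Insig1, which holds SREBP proteins in the endoplasmic reticulum, fell by 1.07, though not without Nrp1-deleted replicate 1. Nsdhl and Mvk lost their calls without control replicate 2 or Nrp1-deleted replicate 1, and Lss without either control array or Nrp1-deleted replicate 2. Sc5d (-0.49, adjusted p = 0.0597), Stard4 (-0.34), Dhcr7 (-0.23) and Hmgcs1 (-0.29) did not pass.

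Fatty acid synthesis, the SREBP1 branch, showed less of this. Of 13 genes, 4 fell and 0 rose, with a median of -0.10. Srebf1, the gene for SREBP1, and Scd2 were not among the genes measured. Acss2 (0.74) did not pass in the main model. It passed as a rise with array weights, only the groups compared or only the 8 early and day 12 B16 arrays. Fads1, a fatty acid desaturase, read 5.14 and 5.49, against 6.54 and 6.79 (-1.35 ± 0.22, adjusted p = 6.36e-05), and Fads2 fell by 1.22. Acly, which supplies cytosolic acetyl-CoA, fell by 0.35 ± 0.09. Scd1, the stearoyl-CoA desaturase, read 4.182 and 5.399, against 5.64 and 6.29 (-1.18 ± 0.35, adjusted p = 0.0194). The Scd1 groups were 0.24 apart at their nearest, and both Scd1 and Acly failed without control replicate 2 or Nrp1-deleted replicate 1 and when probe sets were averaged. Fasn, fatty acid synthase, read 8.49 and 8.54, against 8.61 and 8.62 (-0.10 ± 0.15, adjusted p = 0.752). Acaca read 6.53 and 6.77, against 6.599 and 6.699 (0.00 ± 0.18), with overlapping groups.

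**Figure D3:**
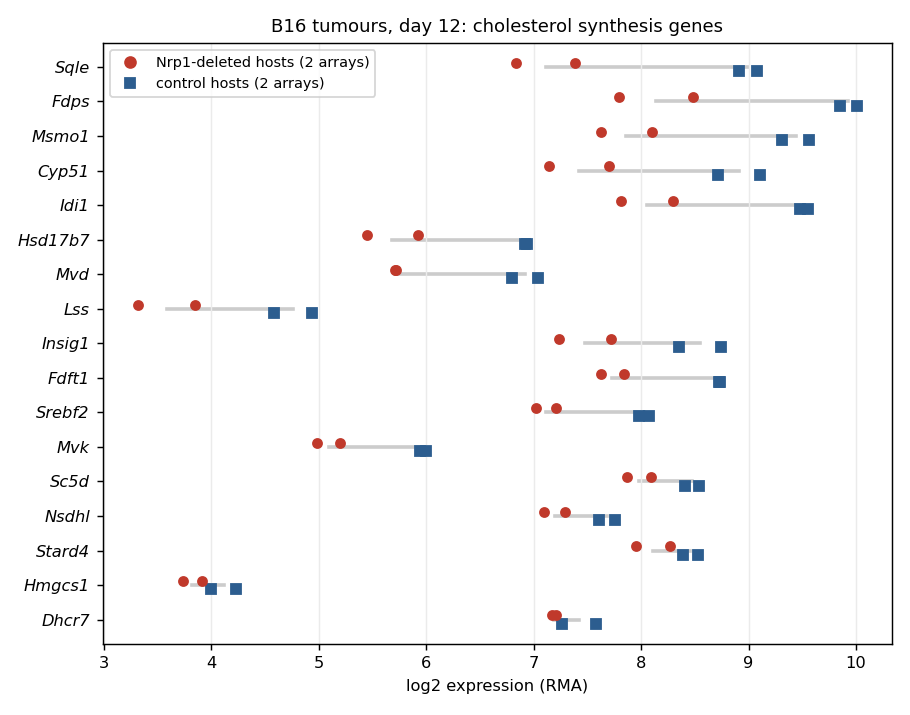
Log2 expression of 17 cholesterol synthesis genes at B16 day 12, ordered by their difference, with red circles for 2 Nrp1-deleted arrays, blue squares for 2 control arrays and grey bars between group means. Sqle, with the largest difference, lies at 6.84 and 7.39, against 8.91 and 9.08, and Dhcr7, with the smallest, at 7.17 and 7.21, against 7.58 and 7.26.

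The cholesterol genes also moved together, and NF-Y sites are known partners of SREBP sites, so promoters of Srebf2 itself and of Cyp51 (the lanosterol demethylase, which fell by 1.49 ± 0.24) are printed. Source, build and window are as for the class II genes, and the letters ATTGG or their reverse complement are in capitals. Srebf2 lies at chr15:82147019-82147318 on the plus strand and Cyp51 at chr5:4104648-4104947 on the minus strand.
Srebf2: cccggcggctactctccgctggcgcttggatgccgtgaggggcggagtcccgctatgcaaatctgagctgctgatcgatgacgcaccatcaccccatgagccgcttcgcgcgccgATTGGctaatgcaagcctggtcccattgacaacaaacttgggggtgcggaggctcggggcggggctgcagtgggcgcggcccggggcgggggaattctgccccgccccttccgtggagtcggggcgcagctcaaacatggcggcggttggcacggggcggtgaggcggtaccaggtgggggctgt
Cyp51: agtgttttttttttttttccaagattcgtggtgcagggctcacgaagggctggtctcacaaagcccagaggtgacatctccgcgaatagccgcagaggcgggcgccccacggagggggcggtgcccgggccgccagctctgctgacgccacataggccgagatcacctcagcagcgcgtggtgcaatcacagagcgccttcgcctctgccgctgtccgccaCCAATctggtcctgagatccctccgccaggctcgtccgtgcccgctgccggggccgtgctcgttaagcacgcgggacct
The match begins at position -135 in Srebf2 and at -29 in Cyp51. Of the 17 genes, 13 matched an entry, and ATTGG on either strand was present in 13 of these 13, against 41.1% of all 27025 genes. GATTGG, which contains ATTGG, was present in 12 of the 13. The sterol element letters TCACNCCAC were found in 1 of 13 (Hmgcs1), against 1.4% of all genes. Sqle, Fdps, Fdft1 and Stard4 were not matched. For comparison, 11 macrophage identity genes had a promoter, of which 4 held ATTGG and 1 held GAGGAAGT, letters of the PU.1 motif found in 3.7% of all genes.

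Of 12 genes for neuropilins and their partners, Nrp1 included, 7 fell, 0 rose and 5 had positive differences that did not pass. Plxnd1, a plexin that signals with neuropilins, read 5.99 and 5.74, against 7.57 and 7.58 (-1.71 ± 0.21, adjusted p = 2.08e-06). Flt1, a VEGF receptor, read 4.25 and 3.73, against 6.15 and 6.51 (-2.34 ± 0.31, adjusted p = 4.27e-06). Nrp2 read 5.42 and 5.24, against 6.28 and 6.35 (-0.99 ± 0.20). These groups were separate by more than 0.8 units. Vegfa fell by 1.33 and Kdr by 1.36, and Plxna1 (-0.77) lost its call without any one array. Sema4a, a semaphorin ligand of neuropilin-1, read 9.57 and 9.71, against 9.30 and 9.11 (0.43 ± 0.15, adjusted p = 0.0552).

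Most regulatory T cell genes did not pass. Of 13, Foxp3 included, 2 fell, Ebi3 (-1.88 ± 0.25) and Capg (-1.39 ± 0.15), both of which myeloid cells also express, and 11 did not pass (median 0.10). Of all genes tested 17.0% passed, so the small number of calls does not set this list apart. Over the alternatives 0 to 3 rose. Ikzf2 (Helios) read 10.45 and 10.13, against 10.14 and 10.32. Ctla4, an inhibitory receptor, read 12.03 and 11.76, against 10.738 and 11.003 (1.02 ± 0.54, adjusted p = 0.239), and Icos read 11.56 and 11.30, against 9.73 and 10.25 (1.45 ± 0.56, adjusted p = 0.0815). For Ctla4 and Icos both Nrp1-deleted arrays lay above both control arrays, and for Ikzf2 the groups overlapped.

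T cell genes were higher on both Nrp1-deleted arrays in most cases, and a minority passed. All 13 genes of the T cell receptor complex had positive differences (median 0.96), of which 4 rose. Ubash3a, a negative regulator of receptor signalling, read 7.51 and 7.96, against 6.81 and 6.45 (1.10 ± 0.26, adjusted p = 0.00379). Prkcq, a kinase of the T cell synapse, read 10.46 and 10.61, against 9.18 and 9.18 (1.35 ± 0.36, adjusted p = 0.0105). Cd247, the zeta chain, read 10.45 and 10.29, against 8.93 and 9.03 (1.39 ± 0.43, adjusted p = 0.0253). Groups did not overlap in these, and Cd28, the main costimulatory receptor, rose by 1.33 ± 0.43. Cd3e, at 9.78 and 9.42 against 9.10 and 8.46, did not pass (adjusted p = 0.153). The count moved with the source of the variance. It was 13 of 13 when the spread came only from the 4 arrays compared and 12 when it came from the 8 early and day 12 B16 arrays. It was 1 without control replicate 1, 0 without control replicate 2, 2 without Nrp1-deleted replicate 1 and 0 without Nrp1-deleted replicate 2.

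Cd8a, which encodes the CD8 alpha chain, read 11.74 and 11.59, against 10.67 and 10.41 (1.13 ± 0.46, adjusted p = 0.105), and Cd8b1 read 11.94 and 11.80, against 10.78 and 10.62 (1.17 ± 0.49). The groups were about 1 unit apart in both, and neither passed. Of 9 co-receptor and lineage factor genes, 3 rose, the CD4 co-receptor gene Cd4 (1.07 ± 0.32) and the transcription factor genes Gata3 (1.16 ± 0.38) and Runx3 (0.38 ± 0.12). Each of these failed without any one of the 4 arrays. The count was 8 of 9, Cd8a and Cd8b1 among them, when the spread came from the groups compared only or from the 8 early and day 12 B16 arrays, and 6 with array weights. Cytotoxic genes were likewise all positive (15 of 15, median 0.88), and 4 rose. Fasl, the death ligand, read 11.02 and 11.24, against 9.49 and 9.44 (1.66 ± 0.40, adjusted p = 0.00457), a call kept under every alternative. Ifng, interferon gamma, read 11.98 and 11.87, against 10.55 and 10.15 (1.58 ± 0.41, adjusted p = 0.00891), and failed without control replicate 2 or Nrp1-deleted replicate 1. Klrk1 (NKG2D) rose by 0.94 and Ctsw by 0.89, each failing without any one array. Prf1 (perforin) read 10.59 and 10.49, against 10.31 and 9.61, and Gzmb 12.79 and 13.07, against 12.63 and 12.12, and neither passed. The number of cytotoxic genes that rose ranged from 1 to 14 over the alternatives, and was 2 without control replicate 1 or Nrp1-deleted replicate 2 and 1 without control replicate 2 or Nrp1-deleted replicate 1.

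Inhibitory receptors of exhausted T cells rose in 3 of 7 cases (median 1.02). Havcr2 (TIM-3) read 9.72 and 9.55, against 8.88 and 8.66 (0.86 ± 0.18, adjusted p = 0.00126), kept under every alternative. Cd160 read 9.39 and 9.47, against 8.24 and 8.40 (1.11 ± 0.29), and failed without control replicate 1 or Nrp1-deleted replicate 2. Lag3 read 9.39 and 9.07, against 7.53 and 7.29 (1.82 ± 0.57, adjusted p = 0.0289), and failed without any one array. In all 3 the Nrp1-deleted arrays lay above the control arrays. Pdcd1 (PD-1) read 10.79 and 10.62, against 9.51 and 9.33 (1.29 ± 0.47, adjusted p = 0.065). Lef1, Klf2 and Bach2, factors of resting or memory T cells, rose by 1.03, 0.85 and 0.76, and Id3 fell by 0.99, and each call was lost without control replicate 2, and also without 1 or both Nrp1-deleted arrays. The 3 rises became 0 without either control array, 1 without either Nrp1-deleted array and 5 with the spread of the groups compared. NK cell genes had 0 of 8 past the threshold in limma (median 0.64), and 7 passed when the spread came from the compared groups only. Klrb1c (NK1.1) read 7.79 and 8.08, against 6.79 and 7.04 (1.02 ± 0.43, adjusted p = 0.117).

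Of 14 costimulation genes, which include receptors and ligands, 6 fell and 1 rose, with a median of -0.35. Cd70 read 4.20 and 4.14, against 6.85 and 6.94 (-2.73 ± 0.31, adjusted p = 5.04e-07). Tnfsf4 (OX40 ligand) read 3.76 and 3.66, against 5.79 and 5.78 (-2.08 ± 0.31), and Cd40 read 6.38 and 7.02, against 8.50 and 8.46 (-1.78 ± 0.27). Groups were more than 1.4 units apart in these 3, which antigen-presenting cells are known to express. Cd80, Cd86 and Tnfsf9 also fell (-1.97, -0.88 and -1.57). Cd27, the receptor for Cd70, read 10.18 and 9.97, against 8.56 and 8.82, and rose by 1.38 ± 0.45, a call lost without any one array. Icosl, the ligand of Icos, did not pass (-0.43).

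Lymphocyte cytokines rose in 4 of 11 cases, in 2 without control replicate 2, in 3 without any other single array and in 7 with the spread of the groups compared. Il21 read 7.461 and 6.996, against 5.48 and 4.33 (2.32 ± 0.35, adjusted p = 2.78e-05), and Il2, the T cell growth factor, read 6.35 and 5.97, against 4.20 and 4.67 (1.73 ± 0.36, adjusted p = 0.00126). These calls held under every alternative. Il10 (1.29 ± 0.44, adjusted p = 0.0476) failed without any one array, and Ifng is given above. Il4 read 4.41 and 6.80, against 3.56 and 3.51 (2.07 ± 0.74, adjusted p = 0.0567), its level resting on Nrp1-deleted replicate 2.

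Genes of antibody-secreting cells and basophils stood out among the rises, with wide spread between the Nrp1-deleted arrays. Iglv1, a lambda light chain segment, read 6.26 and 9.74, against 4.02 and 4.27 (3.86 ± 0.83, adjusted p = 0.00156), and with Jchain and Prdm1 (0.70 ± 0.18) it made 3 rises among 6 genes of antibody-secreting cells. Xbp1, the fourth that passed, fell (10.40 and 10.53, against 11.22 and 11.27, -0.78 ± 0.11). Other cells also express Prdm1 and Xbp1. B cell genes showed 1 rise, Ighm (3.22 and 5.25, against 3.01 and 2.74), and 1 fall, Fcrla (-1.43 ± 0.41), among 10. Mcpt8, a protease of basophils, read 6.11 and 7.60, against 3.89 and 3.52 (3.16 ± 0.72, adjusted p = 0.00285), and Gata2, a factor of basophils and mast cells, read 5.42 and 7.26, against 4.15 and 3.99 (2.27 ± 0.72). Among 11 genes of that list these were the 2 rises, with a median of 1.33. The count was 8 when the spread came from the groups compared only, 5 when it came from the 8 early and day 12 B16 arrays, 1 without either control array and 0 without Nrp1-deleted replicate 2. Hdc, Cpa3 and Cma1 had differences of 1.43, 1.34 and 1.33 and did not pass, except with the spread of the groups compared. Hdc also passed with the spread of the 8 early and day 12 B16 arrays. For Jchain, Iglv1, Ighm, Mcpt8 and Gata2, Nrp1-deleted replicate 2 was the higher of its pair. Without it, Iglv1, Ighm, Mcpt8 and Gata2 failed, and Prdm1 and Fcrla failed without control replicate 1 or Nrp1-deleted replicate 1. Ighm and Gata2 also failed without either control array.

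Granzyme genes, 10 of which were measured, did not move together. Gzme read 3.36 and 3.91, against 8.49 and 7.89 (-4.56 ± 1.15, adjusted p = 0.00634), and Gzmd read 3.05 and 3.11, against 7.87 and 6.88 (-4.29 ± 1.20, adjusted p = 0.0133). Gzmc and Gzmf, named after their values were seen, fell by 3.01 ± 0.66 and 3.93 ± 1.11. Gzmg, another gene of the cluster, read 3.03 and 3.35, against 4.31 and 3.77 (-0.84 ± 1.40, adjusted p = 0.795), and Gzmn was near background on all 4 arrays. These granzymes are close paralogs encoded side by side, so probes may cross-hybridise and the members cannot be counted as separate observations. Both groups were separated by more than 2 units in Gzmc, Gzmd, Gzme and Gzmf, while Gzma (12.08 and 12.48, against 11.62 and 11.66), Gzmb and Gzmk (10.63 and 10.75, against 9.35 and 9.04) did not pass, nor did Gzmm (0.59 ± 0.31). Gzmd lost its call without control replicate 1 or either Nrp1-deleted array.

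Genes of cells that lack CD45 were examined because RNA of such cells can enter a sort. Melanocytic genes, which mark B16 cells, fell in 9 of 12 cases (median -1.83). Dct, a melanin synthesis enzyme, read 7.17 and 8.24, against 9.81 and 10.03 (-2.21 ± 0.37), and Tyrp1 read 7.47 and 8.61, against 10.06 and 10.27 (-2.12 ± 0.37). The mean over the 12 was 4.82 and 5.56 in Nrp1-deleted hosts, against 6.604 and 6.82 in control hosts, and Nrp1-deleted replicate 1 was the lower of its pair in 11 of 12. Mitf (-2.11 ± 0.24), the factor of melanocytes, is also expressed by macrophages and mast cells. Gpr143 was near background on all 4 arrays. The part of melanoma RNA in the differences of other genes was not tested. Of 18 fibroblast and matrix genes, 12 were near background on all 4 arrays, Col3a1 among them at 3.005 and 3.265 against 3.32 and 3.36. Sparc (3.99 and 3.95, against 6.87 and 6.81) and Serpinh1 (-1.70 ± 0.47) fell, the second failing without either control array or Nrp1-deleted replicate 1. Of 9 endothelial genes Kdr fell, and of 6 epithelial genes Epcam rose (1.22 ± 0.35, lost without either control array or Nrp1-deleted replicate 1). Of 5 erythroid and platelet genes 0 passed in limma.

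The same genotypes were compared in early B16 tumours on arrays whose mean values match these (4.95 to 4.97). Titles place the early arrays at day 8 and source names at day 6. In early tumours 76 genes passed (0.445%), 26 higher (0.152%) and 50 lower (0.292%). The macrophage list had a median difference of -0.66 there with 2 falls, against -2.93 at day 12. Its mean was 6.68 and 5.71 on early Nrp1-deleted arrays, against 6.79 and 6.92 on early control arrays. At day 12 it was 5.71 and 6.03, against 8.29 and 8.34. Nrp1-deleted means at both times thus lay between 5.71 and 6.68, and the control means of day 12 were the highest of the 8 arrays. The genotype difference itself differed between day 12 and the early day for 1075 genes (6.29%), 321 higher (1.88%) and 754 lower (4.41%), among them 11 of 17 macrophage genes, all lower. The count was 601 without early Nrp1-deleted replicate 1, 627 without day 12 Nrp1-deleted replicate 1, 666 without early control replicate 1 and 711 without day 12 control replicate 2.

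Arg1 read 7.55 and 5.34, against 7.56 and 8.68, in early tumours, and its difference changed by -4.50 ± 0.74 at day 12 (adjusted p = 0.000381). Pf4 and Dab2 changed by -5.27 ± 0.86 and -4.38 ± 0.66. Gzmd and Gzme had positive differences in early tumours, 2.44 and 1.68, with the same standard errors as at day 12 (1.20 and 1.15). Their differences of effect were -6.73 ± 1.69 and -6.24 ± 1.63. Of their paralogs, Gzmc passed the same limma test (-3.44, adjusted p = 0.025). Gzmf (-4.87, adjusted p = 0.0671) and Gzmg (-2.61, adjusted p = 0.568) did not. On the rising side Jchain changed by 3.35 ± 0.84, Il2 by 2.68 ± 0.51, Stfa3 by 2.41 ± 0.30, Septin4 (a septin) by 2.25 ± 0.49 and Trat1, an adaptor of the T cell receptor complex, by 2.09 ± 0.63. For Il2, Stfa3, Septin4 and Trat1 the early difference was negative, from -0.48 to -1.06. Of the 13 receptor complex genes and the 15 cytotoxic genes, 0 differed in effect from the early day, and Cd8a had 1.14 ± 0.46 early and 1.13 ± 0.46 at day 12. For Ifng the effects were 0.35 early and 1.58 at day 12, a difference of 1.22 ± 0.59 (adjusted p = 0.271).

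**Figure D4:**
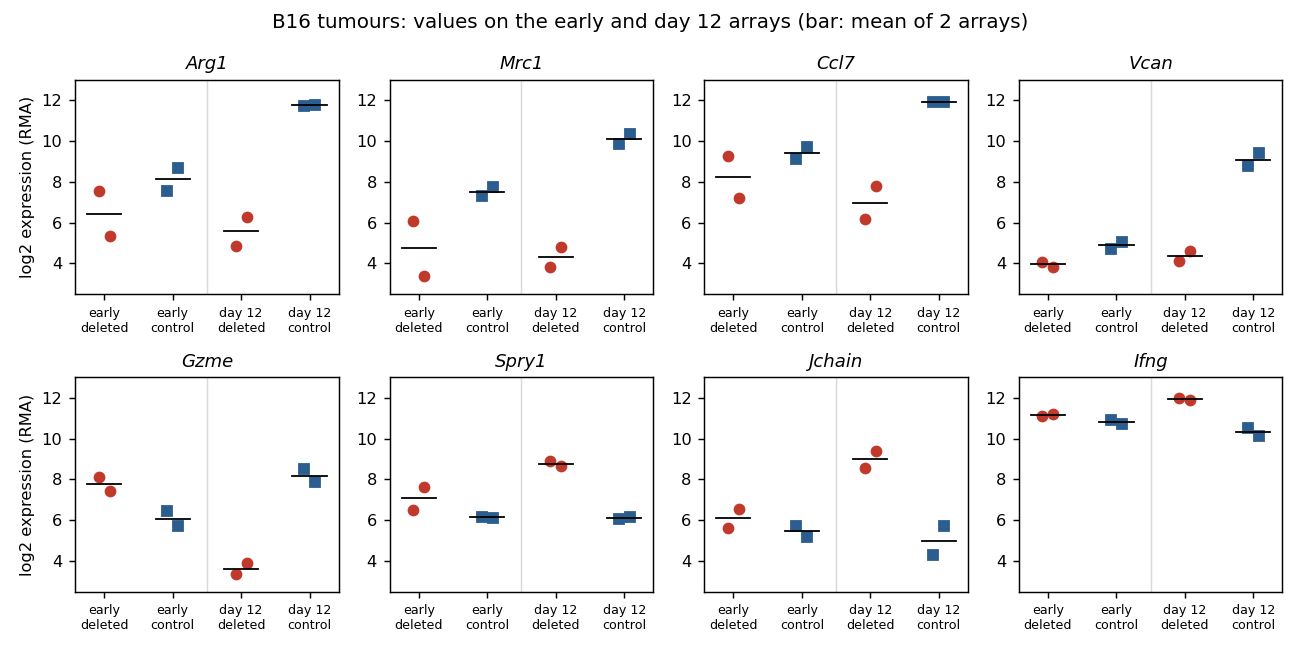
Log2 expression of 8 genes on the early and day 12 B16 arrays, which have matching mean values, with red circles for Nrp1-deleted hosts, blue squares for control hosts and a bar at the mean of each pair. Arg1, Mrc1, Ccl7 and Vcan are highest on the day 12 control arrays, with Arg1 at 11.72 and 11.78, and Jchain is highest on the day 12 Nrp1-deleted arrays, at 8.55 and 9.42.

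The later B16 day and the other tumour at day 12 lie among arrays of lower mean value (4.62 to 4.64), so effects, not levels, are compared. At B16 day 18, 3217 genes passed (18.8%), 1289 higher (7.54%) and 1928 lower (11.3%). The difference of effects, day 12 minus day 18, passed for 1038 (6.07%), 488 higher (2.85%) and 550 lower (3.22%). At day 18, 12 of 17 macrophage genes and all 10 class II genes also fell, with medians of -0.93 and -1.22. The day 12 effect was lower than that of day 18 for 9 of the 17 and for 5 of the 10. Arg1 had -6.18 at day 12 and -1.24 at day 18, a difference of -4.93 ± 0.68, and Dab2 differed by -4.20 ± 0.60. Chil3 and Chil4 differed by -4.43 ± 0.66 and -4.60 ± 0.76, with day 18 effects of -0.12 and -0.22, and Dmkn, which encodes dermokine, by -4.17 ± 0.77. On the other side Cfap54, Rec114, Mgll and Col3a1 differed by 3.06 ± 0.34, 2.94 ± 0.31, 2.92 ± 0.34 and 2.92 ± 0.55. Each of those had an effect below -3 at day 18 and did not pass at day 12. The means of Cfap54, Rec114 and Col3a1 over the day 12 B16 arrays were near background, so a fall could hardly show there. Melanocytic genes had a median effect of 0.26 in early tumours and of -3.18 at day 18, where 12 of 12 fell, and 7 of 12 differed from day 12. Jchain differed by 3.69 ± 0.76. The count of 1038 was 652 without day 12 control replicate 1, 690 without day 12 control replicate 2 and 689 without day 12 Nrp1-deleted replicate 1.

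In MC38 tumours at day 12, 1468 genes passed (8.59%), 635 higher (3.71%) and 833 lower (4.87%). The difference of effects, B16 minus MC38, passed for 1984 (11.6%), 904 higher (5.29%) and 1080 lower (6.32%). Macrophage genes had a median effect of -0.12 in MC38 with 1 fall, and 13 of 17 differed, all lower in B16. Arg1, Mrc1 and Dab2 had MC38 effects of 0.24, 0.22 and -0.01, and the differences were -6.42 ± 0.68, -6.01 ± 0.76 and -6.15 ± 0.60. Pf4 differed by -6.42 ± 0.78 and Chil4 by -5.99 ± 0.76. Of the 10 class II genes, 9 differed. Cholesterol synthesis genes were a partial exception. They fell in both tumours (13 of 17 in B16, 9 of 17 in MC38, medians -1.07 and -0.62), and 3 of 17 differed. Sqle had -1.89 in B16 and -0.94 in MC38, a difference of -0.95 (adjusted p = 0.0503). Of the rises, Iglv1 differed by 4.15 ± 1.07, Jchain by 3.46 ± 0.76 and Mcpt8 by 2.99 ± 0.93. Col6a1, a collagen gene, and Aqp1, a water channel gene, differed by 3.58 ± 0.41 and 2.95 ± 0.38, each near background in B16 and lower in Nrp1-deleted MC38 tumours by 3.21 and 2.62. Cd8a had 1.13 and 0.70, a difference that did not pass (adjusted p = 0.731). The count of 1984 was 1298 without B16 day 12 control replicate 2.

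**Figure D5:**
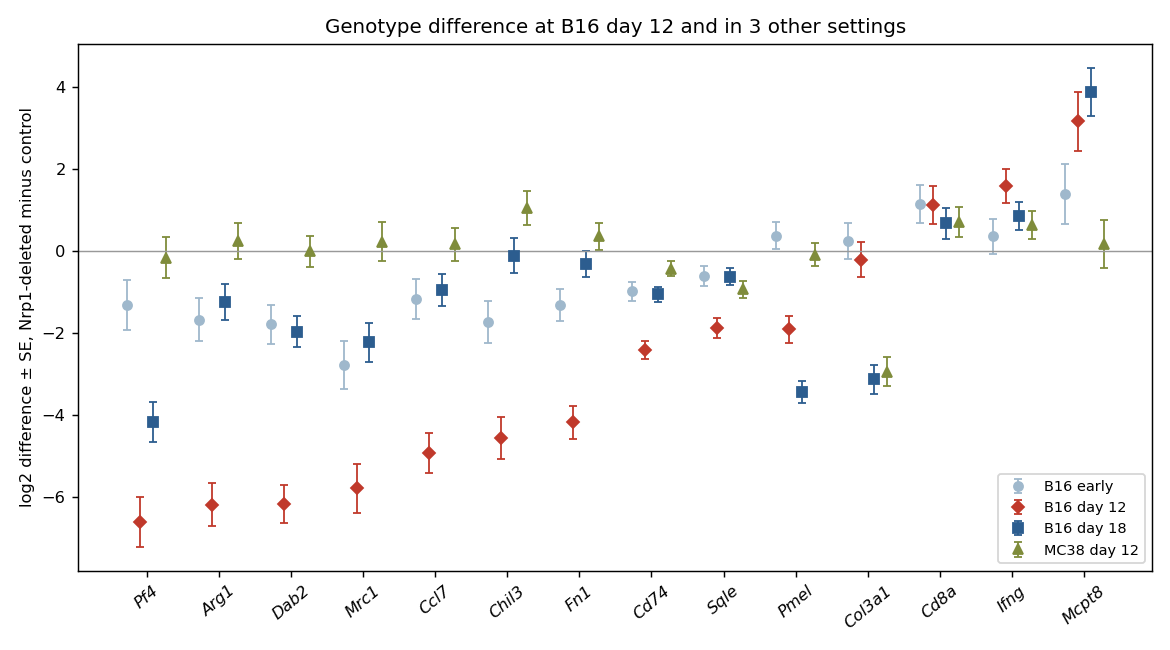
Log2 difference, Nrp1-deleted minus control, with its standard error for 14 genes in early B16, day 12 B16, day 18 B16 and day 12 MC38 tumours. Arg1 lies at -6.18 at B16 day 12, against -1.68, -1.24 and 0.24 in the others, while Cd8a lies between 0.67 and 1.14 in all 4.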

How the data were processed

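RNA of sorted CD45+ tumour cells was hybridised to Affymetrix mouse arrays after amplification with a two-cycle protocol, per the labels' protocols. The authors deposited log2 values, and the submitters' processing notes name RMA (Partek 6.6). The arrays fall into 3 sets by mean value, which is 4.95 to 4.97 on the 8 early and day 12 B16 arrays, 4.82 to 4.84 on 8 MC38 arrays and 4.62 to 4.64 on the 12 others. Scanner files were not used here.

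Of 45141 probe sets (104 controls), 28898 named 1 gene, 551 named several and 15692, controls included, were unnamed here. Each of 17097 genes was read from its probe set of highest mean across the series, and 7180 genes had several. Gene symbols come from the platform annotation, which can be old. Groups came from the titles and genotype labels.

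A model with a mean for each group was fitted to all 28 arrays with limma 3.58.1 in R 4.3.3 (empirical Bayes, intensity trend, no filter, Benjamini-Hochberg over all genes, 2-sided), giving 16 residual degrees of freedom. The fit was tested on simulated data. Alternatives covered probe set averaging, a filter on dim genes, normalization, variance models, array weights, the arrays in the fit, a replicate block and leaving out each array.

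Named genes are the 15 largest falls and rises past the threshold, with groups that do not overlap and the higher mean above 3.64. For each difference of effects they are the 5 largest in each direction among genes whose difference of effects passed. There the day 12 B16 groups again had to be separate, but the highest group mean of either setting could be the one above 3.64. Predicted and clone-named genes were passed over. List members may also be named, with values for those of smallest adjusted p. The members and the 49 lists (512 of 578 genes measured) were chosen with earlier results of these data known. Lists overlap, and they hold textbook markers.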

Additional observations from a re-analysis of the deposited data

Results flagged for a closer look

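The genotype difference of these genes at B16 day 12 differed, by the test of the difference itself in limma, from that in another setting. Against early B16 tumours the differences of effect were -6.73 for Gzmd, -6.24 for Gzme, -5.27 for Pf4, -4.50 for Arg1, -4.38 for Dab2, 3.35 for Jchain, 2.68 for Il2, 2.41 for Stfa3, 2.25 for Septin4 and 2.09 for Trat1.

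Against B16 day 18 they were -4.93 for Arg1, -4.60 for Chil4, -4.43 for Chil3, -4.20 for Dab2, -4.17 for Dmkn, 3.69 for Jchain, 3.06 for Cfap54, 2.94 for Rec114, 2.92 for Mgll and 2.92 for Col3a1.

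Against MC38 day 12 they were -6.42 for Pf4, -6.42 for Arg1, -6.15 for Dab2, -6.01 for Mrc1, -5.99 for Chil4, 4.15 for Iglv1, 3.58 for Col6a1, 3.46 for Jchain, 2.99 for Mcpt8 and 2.95 for Aqp1. Means over the day 12 B16 arrays were near background for Cfap54, Rec114, Col3a1, Col6a1 and Aqp1. The comparisons with day 18 and with MC38 set effects from arrays of different mean value against each other. Within a comparison the settings share no arrays, but every comparison uses the same 4 arrays of B16 day 12. Genes that recur across the lists, such as Arg1, Dab2 and Jchain, are therefore not independent findings.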

How the results depend on the processing

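Of 535 genes followed at B16 day 12, 256 passed and 180 of these passed under every alternative that tested them. Another 279 did not pass, 194 of them under no alternative, and 0 changed direction after passing. Leaving out 1 array put the count of 2900 at 1802 to 2157, the 1333 higher at 626 to 848 and the 1567 lower at 1146 to 1309. The fewest calls came without control replicate 2 (total and higher) and without Nrp1-deleted replicate 1 (lower). The other settings gave 2493 to 3651. Cyclic loess turned the share of rises to 37.1%, against 46%, with a median difference over all genes of 0.00 in place of 0.04. For day 12 against early B16, 1075 became 1813 with array weights, 1711 with only the groups compared, and 601 to 980 without 1 array. Leaving out 1 array gave 652 to 1149 for day 18 and 1298 to 1950 for MC38. A replicate block gave 2493 calls at day 12, 2426 of them among the 2900. Deviations of same-numbered arrays correlated at r = 0.019 over 1 pair of groups, and the labels do not say whether a number marks a shared batch. Depth is not defined for arrays. Genes near background on 1 side understate their fold, and calls on lymphocyte genes move with the source of the variance.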

Other observations

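Glycolysis and hypoxia genes fell in 13 of 15 cases (median -1.10), and 10 to 14 fell under the alternatives. Bnip3, a mitophagy receptor induced by low oxygen, read 8.47 and 8.63 in Nrp1-deleted hosts, against 10.48 and 10.38 in control hosts (-1.88 ± 0.16, limma adjusted p = 9.24e-09). Hk2, a hexokinase, read 7.56 and 7.90, against 9.62 and 9.65 (-1.91 ± 0.18). Egln3, an oxygen-sensing hydroxylase, read 5.60 and 5.53, against 8.03 and 7.99 (-2.44 ± 0.33). All 3 were separate by more than 1.7 units. In early tumours 0 of the 15 passed in limma, and for 9 the difference of effects between the days passed. The respiratory chain list moved little, with 1 fall among 14, Cycs (-0.40 ± 0.08), which failed when probe sets were averaged. Among 15 cell cycle genes 1 rose, Mcm6 (0.31 ± 0.11), which failed without control replicate 2 or either Nrp1-deleted array, and 3 rose with the spread of the groups compared. Mki67 read 9.93 and 10.11, against 9.65 and 9.22 (adjusted p = 0.0834).

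Of 13 genes induced by interferon gamma, 4 fell and 0 rose in limma, and 4 (Igtp, Irgm2, Tgtp1 and Irf1) rose when the spread came from the 8 early and day 12 B16 arrays. Cxcl9 fell by 1.23 ± 0.21, Gbp2 read 10.41 and 10.47, against 11.20 and 11.32 (-0.82 ± 0.16), and Cd274 (PD-L1) fell by 0.72 ± 0.25, a call lost without any one array. Irf1 read 10.62 and 10.81, against 10.42 and 10.47, and did not pass in the model of all 28 arrays. Of 11 genes induced by type I interferon, 7 fell. Oasl2 read 6.29 and 6.82, against 8.47 and 8.44 (-1.90 ± 0.19, adjusted p = 1.01e-07), and Ifit1 read 8.85 and 9.29, against 9.27 and 8.88, with overlapping groups. Nrp1-deleted replicate 1 was the lower of its pair in all 11. At B16 day 18, 2 of the 11 rose and 0 fell in limma, and for 6 the effect at day 12 was lower. Mx1 and Ifih1 lost their calls without control replicate 1 or Nrp1-deleted replicate 1, and Irf7 without either control array or Nrp1-deleted replicate 1.

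Matrix proteases and their inhibitors fell in 6 of 12 cases. Mmp14, a membrane-bound protease, read 6.12 and 6.63, against 8.54 and 8.88 (-2.34 ± 0.23), and the inhibitor gene Timp1 read 4.23 and 4.03, against 6.46 and 7.08 (-2.64 ± 0.41). Groups were separate in both by more than 1.9 units. Of 9 genes of arginine and polyamine metabolism 6 fell, Arg2 by 2.75 ± 0.66 (not without control replicate 2) and Sat1 by 0.74 ± 0.15. The count was 3 without control replicate 2 and 4 without control replicate 1 or Nrp1-deleted replicate 2, with Ass1, Srm and Slc7a2 among the calls lost. Tgfbi, an extracellular protein induced by TGF-beta, read 8.33 and 9.26, against 12.10 and 12.15 (-3.33 ± 0.28, adjusted p = 8.79e-09). Among 10 genes of that pathway Tgfb1 also fell (-0.62) and Tgfbr2 rose (0.43), and both calls were lost without Nrp1-deleted replicate 1, the first also without control replicate 2 and the second also without control replicate 1. Immediate early and stress genes were split, with 4 of 10 falling and 1 rising. The falls were 2 without Nrp1-deleted replicate 1 and 3 without any other single array, and Fos (-0.45) lost its call without any one of the 4. Junb, the 1 rise (0.57), failed without control replicate 1 or Nrp1-deleted replicate 2. Ier3 read 9.05 and 10.02, against 11.50 and 11.90 (-2.16 ± 0.28), and Hspa1b (Hsp70) fell by 2.02 ± 0.41, though not without Nrp1-deleted replicate 1, whereas Egr1, at 11.49 and 11.70 against 11.39 and 11.37, did not pass.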
